A study of Mus musculus with 8 samples.

Results

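The genes described here are those of the integrated stress response: the transcription factor ATF4, the bZIP factors that work with it, and their target genes in amino acid and one-carbon metabolism. The list named 36 genes, and a gene was included when the array's platform table gave its symbol to a probe set. Of the 36 genes, 34 were measured, each by 1 of the 22142 tested probe sets. Gdf15 and Pycr1 had no match among the named probe sets and were not analysed here. Expression was measured on Clariom S arrays in alphaTC1.9 cells, a mouse cell line derived from a glucagon-producing pancreatic tumour. There were 4 arrays of control cells and 4 of IDE-KD cells, in which a small interfering RNA had been used against insulin-degrading enzyme, a protease of insulin and further short peptides. Both groups grew in 16 mM glucose with non-essential amino acids in the medium and received no other treatment, per the labels' protocols. The sample titles call the arrays of each group biological replicates. The labels leave out whether control cells received a non-targeting RNA, how long the knockdown lasted and whether these replicates were separate cultures. The p-values therefore measure only the spread between the arrays, which may be in part technical.

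In the integrated stress response, kinases that sense amino acid shortage, unfolded proteins in the endoplasmic reticulum, double-stranded RNA or haem shortage phosphorylate the translation factor eIF2. General protein synthesis then slows, while the Atf4 mRNA, which carries upstream open reading frames, is translated more. ATF4 pairs with C/EBP-type bZIP proteins on a composite DNA element and raises transcription of genes for amino acid synthesis, transport and tRNA charging, together with factors that end the response or, when stress persists, promote cell death. Because ATF4 is controlled largely through translation, an mRNA array reads it mainly through its targets. Islet cells make large amounts of secreted peptide and are known to use this pathway.

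The composite element is shown first because it is the sequence feature that ties the target genes to ATF4. RefSeq promoter windows on GRCm38.p6, each from 250 bases before to 50 bases after an annotated start site, were found for 33 of the 36 genes. They were searched for TGATGNAA on both strands (TTNCATCA when read along the gene). Of these 33 genes, 13 (39.4%) had a match in at least 1 window, against 1219 of 27025 genes (4.51%) with an entry in the table. Counted by window, 13 of 42 windows of the listed genes and 1304 of 32851 windows in all (3.97%) held it. The genes with a match were Atf3, Jdp2, Nupr1, Trib3, Chac1, Asns, Pck2, Pycr1, Got1, Slc7a11, Fgf21, Vldlr and Herpud1. The stretches below surround the match, in capitals, in 6 of these genes. All but that of Trib3 end before the start site.
Trib3 (GRCm38.p6 chr2:152344029-152344056, minus strand): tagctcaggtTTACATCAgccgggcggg
Asns (GRCm38.p6 chr6:7693210-7693288, minus strand): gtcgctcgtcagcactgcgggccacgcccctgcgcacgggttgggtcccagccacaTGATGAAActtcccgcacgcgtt
Chac1 (GRCm38.p6 chr2:119350993-119351112, plus strand): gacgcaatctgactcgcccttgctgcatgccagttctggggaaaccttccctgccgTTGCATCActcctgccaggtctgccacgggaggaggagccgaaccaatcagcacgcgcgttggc
Atf3 (GRCm38.p6 chr1:191183380-191183499, minus strand): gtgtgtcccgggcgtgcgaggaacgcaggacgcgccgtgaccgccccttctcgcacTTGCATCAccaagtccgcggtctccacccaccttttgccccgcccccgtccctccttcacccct
Slc7a11 (GRCm38.p6 chr3:50443614-50443735, minus strand): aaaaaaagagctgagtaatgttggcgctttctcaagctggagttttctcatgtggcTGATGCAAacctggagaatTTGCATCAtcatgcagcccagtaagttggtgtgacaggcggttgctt
Fgf21 (GRCm38.p6 chr7:45615566-45615685, minus strand): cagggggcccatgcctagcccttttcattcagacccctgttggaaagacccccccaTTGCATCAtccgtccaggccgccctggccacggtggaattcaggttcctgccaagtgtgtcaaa

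Slc7a11 held 2 matches in opposite orientation, from 66 and 47 bases before its start site. The match in Asns began 23 bases before the start site, and that in Trib3 lay in the first transcribed bases, from base 15 to base 22. In Atf3, Nupr1, Herpud1, Pck2, Got1 and Pycr1 it began between positions -112 and -102. A match is a run of letters and was not measured as a binding site.

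**Figure D1:**
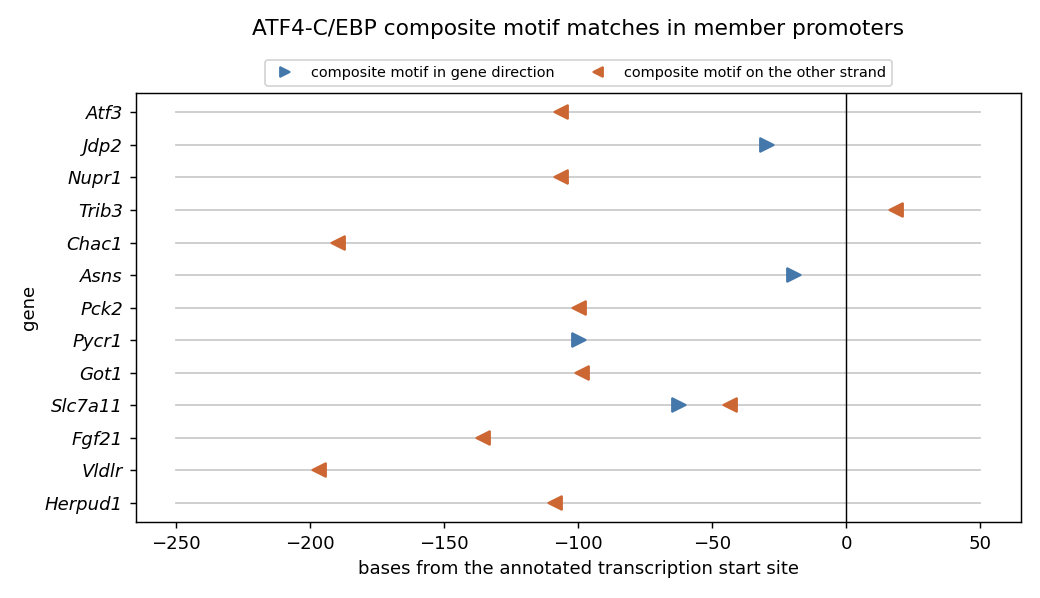
Position of each match to the 8-letter composite motif (x axis, bases from the annotated start site) in the 13 genes that held one (y axis). Right-pointing blue triangles run in the direction of the gene and left-pointing orange triangles lie on the other strand; Slc7a11 carries 2 matches, and Trib3 is the gene whose match lies after the start site.

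The deposited values were log2 expression values, so a difference of 1 is a 2-fold change. IDE-KD and control were compared with limma over all tested probe sets, with Benjamini-Hochberg adjustment and a threshold of 0.05. Ide itself, the targeted gene, read 8.66, 8.62, 8.72 and 8.48 on the control arrays and 7.91, 8.14, 7.92 and 8.05 on the IDE-KD arrays, so the groups did not overlap (log2 difference -0.62, SE 0.12, limma adjusted p = 1.00). Of the alpha cell markers, 7 of 10 were measured and all 7, Gcg (glucagon) among them, were above the median array control probe set of 4.52 in both groups. Markers of immune and endothelial cells (4 of 4), beta cells (4 of 6), fibroblasts (3 of 5) and delta, PP and epsilon cells (2 of 4) were below it in both groups. Above it in both groups stood Ins2, Nkx6-1 (mean 6.79 in control and 6.49 in IDE-KD cells), Sst (5.49 and 5.64), Col1a1 and Col1a2. Ghrl had a mean above it in IDE-KD cells only. The array means of each of these 4 lists overlapped between the groups. In the IDE-KD cells all 5 fibroblast markers (median difference 0.11) and all 4 delta, PP and epsilon markers (median 0.18) had higher means, as had 4 of 6 beta cell markers (0.10) and 3 of 4 immune and endothelial markers (0.06). At an unadjusted limma p under 0.05 stood Lum, a dim probe set of the fibroblast list, at 0.30 (SE 0.13) and Nkx6-1, of the beta cell list, at -0.30 (SE 0.14), each with an exact permutation p of 0.0571 and an adjusted p of 1.00. Their part in the values below was not tested. Arrays with odd replicate numbers and those with even numbers deviated together across both groups, though weakly. Deviations from the group means correlated at 0.02 to 0.21 between control and IDE-KD arrays within odd or within even numbers. Between an odd and an even number they correlated at -0.23 to -0.05. IDE-KD replicates 1 and 3 also had the smallest spread of values (SD 2.16 and 2.13, against 2.20 to 2.25 on the others). The labels name no batch behind this pattern, so values within replicates 1 and 3 and within replicates 2 and 4 are given beside the genes on which the results turn.

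Most stress response genes read slightly lower in the knockdown, but no gene passed the test. Of the 34 genes, 24 were lower and 10 higher in IDE-KD cells, with a median log2 difference of -0.07, while 47.9% of all tested probe sets were lower, with a median of 0.01. Among genes at or above the median control probe set, 20 of 29 were lower, against 55.1% of all probe sets at that level. Limma called 0 of the 34 at an adjusted p under 0.05, as it called 0% of all probe sets. At an unadjusted p under 0.05 stood 2 lower genes, Stc2 and Atf5, and 1 higher, Psph, where 1.91% of all probe sets were lower and 2.69% higher at that level. Which genes stood there depended on the setting. Atf5 left with the replicate block, after a further quantile normalization and without IDE-KD replicates 1 and 3. It also left when control replicate 2, 3 or 4 alone was left out. Trib3 joined with both filters on dim probe sets and without control replicate 3. With the exon minus intron contrast as a covariate, Trib3, Atf4 and Shmt2 joined. The groups did not overlap at 3 genes, Atf4, Trib3 and Stc2, all lower in IDE-KD cells, against 1.41% of all probe sets lower in this way and 1.39% higher.

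On IDE-KD arrays 1, 2, 3 and 4, 23, 24, 23 and 17 of the 34 genes lay below their control mean. On control arrays 1, 2, 3 and 4 the same counts were 21, 14, 24 and 18, with control replicate 3 at the same count as IDE-KD replicate 2. On control replicate 3, 54.4% of all probe sets lay below their control mean, against 47.4% to 50.6% on the IDE-KD arrays. Averaged over the 34 genes, the deviation from the control level was -0.07, -0.04, -0.09 and 0.04 on the IDE-KD arrays and -0.03, 0.08, -0.04 and -0.02 on the control arrays. The groups overlapped, IDE-KD replicates 3 and 1 stood lowest and control replicate 2 highest. The mean of the IDE-KD arrays, -0.04, lay within 1 SD of the control arrays (0.06). Without control replicate 2, 21 genes were lower. Within replicates 1 and 3 alone 21 of 34 genes were lower, against 48.8% of all probe sets. Within replicates 2 and 4 alone 22 genes were lower, against 48.1% of all probe sets. In both, 15 genes were lower and 6 higher. Of all 22142 probe sets, 4972 (22.5%) were lower in both and 5647 were higher in both. Without IDE-KD replicates 1 and 3, the mean over the 34 genes on the remaining knockdown arrays was -0.0022. In that setting 22 of the 34 genes were lower than on the 4 control arrays, with a median difference of -0.05.

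**Figure D2:**
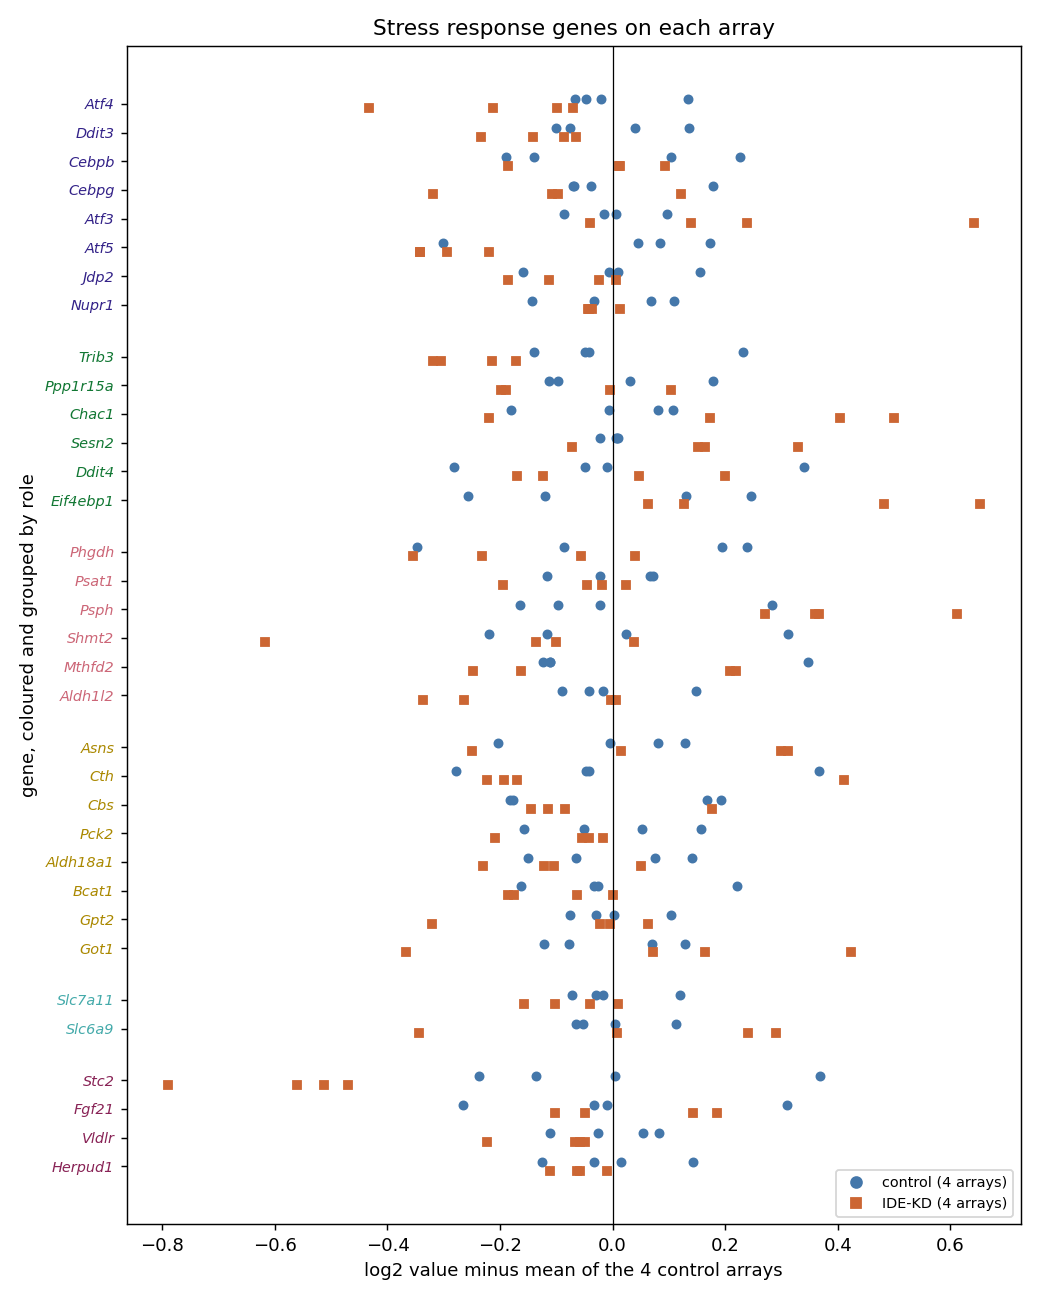
Each gene's value on each array minus its mean over the 4 control arrays (x axis, log2 units), for 34 genes grouped and coloured by role (y axis); blue circles are control arrays and orange squares IDE-KD arrays. The groups stand apart at Atf4, Trib3 and Stc2 and overlap at the other 31 genes.

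The intervals set limits on the difference in array signal that could have gone undetected. They hold for the knockdown measured here, in which Ide itself read 1.53-fold lower. The 95% confidence interval excluded a 2-fold change in either direction for all 34 genes, and for 99.7% of all probe sets. It excluded a 1.5-fold change for 31 of the 34 genes, and for 83.6% of all probe sets. The 3 genes for which it did not were Stc2, Psph and Eif4ebp1. Among genes at or above the median control probe set, the interval excluded a 1.5-fold change for 27 of 29. The share of all probe sets at that level was 89.5%. Array background and normalization compress low signals, so this limit to the measured signal weighs most for dim genes. Dim here means below the median control probe set in both groups, which held for 5 genes, Ppp1r15a, Cth, Cbs, Stc2 and Fgf21.

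**Figure D3:**
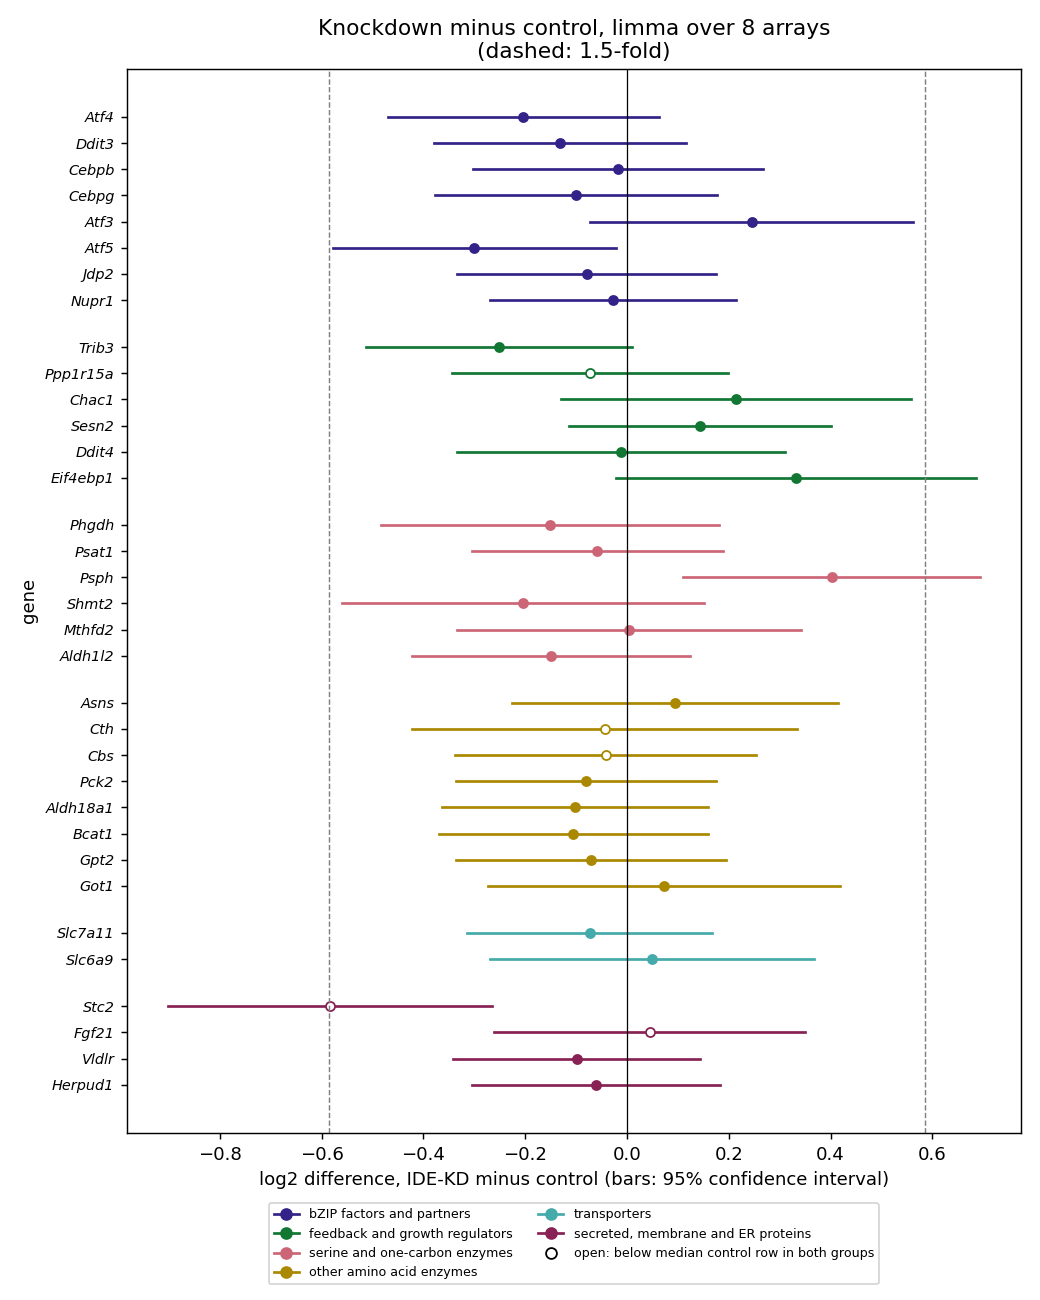
Log2 difference between IDE-KD and control (x axis) with its 95% confidence interval from limma for 34 genes grouped by role (y axis); open circles mark genes below the median control probe set in both groups, and dashed lines mark 1.5-fold. Only the intervals of Stc2, Psph and Eif4ebp1 cross a dashed line, and those of Stc2, Atf5 and Psph leave out 0.

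Among the bZIP factors and their partners 7 of 8 genes were lower and 1 higher, with a median difference of -0.09, and 0 passed the adjusted threshold. Atf4, the central factor, read 8.52, 8.72, 8.57 and 8.54 on the control arrays and 8.38, 8.49, 8.16 and 8.52 on the IDE-KD arrays. Every knockdown array lay below every control array, but IDE-KD replicate 4 was only just under the lowest control. The difference was -0.20 (SE 0.12, 95% confidence interval -0.47 to 0.06), a 1.15-fold lower level. Limma gave p = 0.122 and an adjusted p of 1.00, and the exact permutation test (two-sided) p = 0.0286, the lowest possible with 4 arrays a group. A lower level in all cells and a loss in a fraction of the cells cannot be told apart in such bulk RNA. Without IDE-KD replicate 3 the difference was -0.13, and without replicates 1 and 3 of the knockdown -0.08. It was -0.28 (SE 0.17) within replicates 1 and 3 and -0.13 (SE 0.17) within replicates 2 and 4.

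By Pearson's r, though not by rank after adjustment, the Atf4 level moved with the spread of values on an array. Of 4 array measures set against Atf4 over the 8 arrays, the SD over the tested probe sets gave Pearson's r = 0.87 (exact permutation p = 0.0055, adjusted over the 4 measures 0.022) and Spearman's rho = 0.50 (exact permutation p = 0.216, adjusted 0.288). Without the 2 arrays farthest from the median of Atf4, control replicate 2 and IDE-KD replicate 3, r was 0.68. The mean of the exon control probe sets gave r = 0.82 and that of the intron control probe sets r = 0.75 (exact permutation p = 0.0119 and 0.0332, adjusted 0.0238 and 0.0442), while the exon minus intron contrast gave r = 0.30 (exact permutation p = 0.493). Without the same 2 arrays their r was 0.73, 0.84 and -0.10. The rho of these 3 measures was 0.57, 0.83 and -0.05 (exact permutation p = 0.151, 0.0154 and 0.935, adjusted 0.288, 0.0615 and 0.935), so no rank relation passed after adjustment. All these relations were taken across both groups, so they include the difference between the groups. No gene other than Atf4 was set against these measures. The part of these array measures in the Atf4 difference was not tested, beyond a fit with the exon minus intron contrast as a covariate, in which the difference was -0.28.

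Atf5, an ATF4-related factor whose mRNA is also under translational control, read 6.40, 6.87, 6.74 and 6.78 in control and 6.48, 6.40, 6.35 and 6.35 in IDE-KD cells. Control replicate 1 lay inside the knockdown range, and the other 3 control arrays lay above it. The difference was -0.30 (SE 0.13, 95% confidence interval -0.58 to -0.02; exact two-sided permutation p = 0.0857), and limma gave p = 0.0365 and an adjusted p of 1.00. Within replicates 1 and 3 it was -0.15 (SE 0.18) and within replicates 2 and 4 it was -0.45 (SE 0.17).

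Ddit3, which encodes CHOP, the factor associated with death of chronically stressed cells, read 7.46, 7.23, 7.25 and 7.37 in control and 7.18, 7.09, 7.26 and 7.24 in IDE-KD cells. The groups overlapped, with a difference of -0.13 (SE 0.11; exact two-sided permutation p = 0.143). A second Ddit3 probe set, among the 64 unplaced ones left out of the tests, gave 6.31 ± 0.13 (SD, n = 4) for control arrays and 6.24 ± 0.17 (SD, n = 4) for IDE-KD arrays, a difference of -0.07 (exact two-sided permutation p = 0.543). Both probe sets thus had a lower mean in the knockdown, within the spread of the arrays.

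Atf3, a stress-induced repressor and activator, was the 1 factor of this group with a higher mean in IDE-KD cells. It read 7.01, 7.13, 7.04 and 6.94 in control and 6.99, 7.27, 7.17 and 7.67 in IDE-KD cells. The high knockdown mean came mostly from replicate 4, and the difference of 0.24 (SE 0.15; exact two-sided permutation p = 0.143) was 0.11 without that array. It was 0.05 (SE 0.16) within replicates 1 and 3 and 0.44 (SE 0.20) within replicates 2 and 4. Of the remaining factors, Cebpg, a dimer partner of ATF4, read -0.10 (SE 0.13), Jdp2, a bZIP repressor, -0.08 (SE 0.12), Nupr1, a stress-induced chromatin protein, -0.03 (SE 0.11) and Cebpb -0.02 (SE 0.13). These 4 differences were each smaller than their standard error. The signs of Cebpb and Nupr1 turned after a further quantile normalization.

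**Figure D4:**
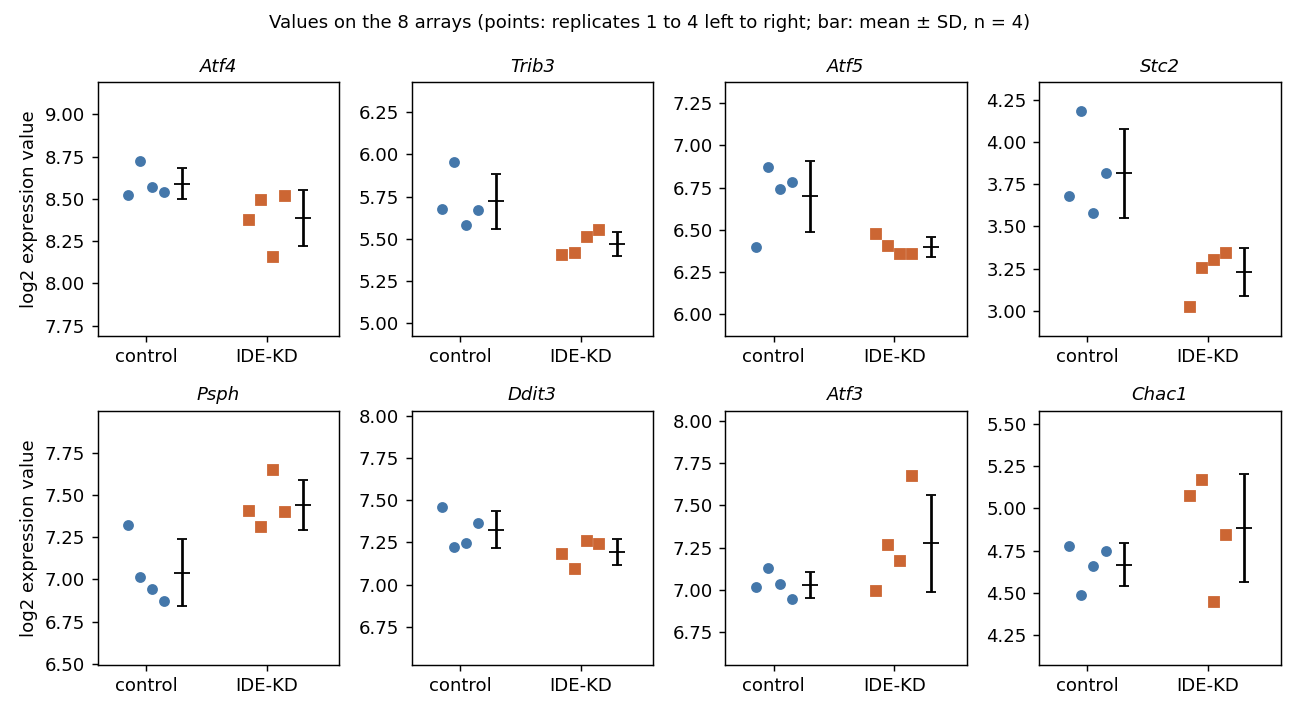
Log2 expression value (y axis, each panel 1.5 units high) on the 4 control arrays (blue circles) and 4 IDE-KD arrays (orange squares) for 8 genes, replicates 1 to 4 from left to right, with mean ± SD beside each group. The groups stand apart for Atf4, Trib3 and Stc2; control replicate 1 lies within the knockdown range for Atf5 and for Psph, and 1 knockdown array carries much of the spread of Atf3.

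The feedback and growth regulators were split, with 3 of 6 genes higher and 3 lower and a median difference of 0.07. Trib3, a pseudokinase that ATF4 and CHOP induce and that restrains them, read 5.68, 5.95, 5.58 and 5.67 in control and 5.40, 5.42, 5.51 and 5.55 in IDE-KD cells. All knockdown arrays lay below all control arrays. The difference was -0.25 (SE 0.12, 95% confidence interval -0.51 to 0.01), with limma p = 0.0579, an adjusted p of 1.00 and an exact two-sided permutation p of 0.0286. It was -0.17 (SE 0.16) within replicates 1 and 3 and -0.33 (SE 0.18) within replicates 2 and 4.

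Chac1, a glutathione-degrading enzyme and a sensitive ATF4 target, pointed the other way from Trib3. It read 4.77, 4.49, 4.66 and 4.75 in control and 5.07, 5.17, 4.45 and 4.84 in IDE-KD cells, so that IDE-KD replicate 3 was the lowest of all 8 arrays and the other knockdown arrays the highest. The difference was 0.21 (SE 0.16; exact two-sided permutation p = 0.257), and leaving out 1 array gave 0.12 (without IDE-KD replicate 2) to 0.36 (without IDE-KD replicate 3). It was 0.04 (SE 0.22) within replicates 1 and 3 and 0.39 (SE 0.19) within replicates 2 and 4. Both promoters hold a match to the composite element. The difference between the genes' responses was not tested.

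Eif4ebp1, a repressor of cap-dependent translation, had the highest fitted difference of the regulators, 0.33 (SE 0.16, limma p = 0.0641, exact two-sided permutation p = 0.171), with 4.86 to 5.37 on the control arrays and 5.18 to 5.77 on the IDE-KD arrays. The groups overlapped. The difference was 0.57 without IDE-KD replicates 1 and 3 and 0.16 with the exon minus intron contrast as a covariate, and it was under an unadjusted limma p of 0.05 with the replicate block and with the odd or even block. It was 0.28 (SE 0.16) within replicates 1 and 3 and 0.38 (SE 0.17) within replicates 2 and 4. Sesn2, a leucine-binding restraint on the growth kinase mTORC1, read 0.14 (SE 0.12), and its 4 control arrays lay between 5.48 and 5.52. Ddit4, a second restraint on mTORC1, read -0.01 (SE 0.15). Ppp1r15a, the inducible subunit that directs a phosphatase to eIF2, read -0.07 (SE 0.13) at a dim level of 3.84 ± 0.14 (SD, n = 4) on control arrays and 3.76 ± 0.15 (SD, n = 4) on IDE-KD arrays. Each of these groups overlapped.

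The serine and one-carbon enzymes had 4 of 6 genes lower and 2 higher, with a median difference of -0.10 that was -0.04 without IDE-KD replicate 3 and -0.03 without IDE-KD replicates 1 and 3. The genes of the 3 steps of serine synthesis did not share a direction. Phgdh, the first enzyme, read 6.72, 7.26, 7.31 and 6.98 in control and 7.01, 6.84, 6.71 and 7.11 in IDE-KD cells, a difference of -0.15 (SE 0.15; exact two-sided permutation p = 0.371). Psat1, the second, read 9.70, 9.61, 9.79 and 9.79 in control and 9.75, 9.68, 9.53 and 9.70 in IDE-KD cells, a difference of -0.06 (SE 0.11; exact two-sided permutation p = 0.429). In both genes the groups overlapped widely.

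Psph, the phosphatase of the last step, read 7.32, 7.02, 6.94 and 6.88 in control and 7.41, 7.31, 7.65 and 7.40 in IDE-KD cells. Only control replicate 1, at 7.32, lay above the lowest knockdown array, at 7.31. The difference was 0.40 (SE 0.13, 95% confidence interval 0.11 to 0.69), or 1.32-fold higher, with limma p = 0.0107, an adjusted p of 1.00 and an exact two-sided permutation p of 0.0571. It was 0.40 (SE 0.19) within replicates 1 and 3 and 0.41 (SE 0.17) within replicates 2 and 4. No match to the composite element was found in the promoter windows of Psph, of Phgdh or of Psat1.

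In the mitochondrial folate arm, Mthfd2, a dehydrogenase and cyclohydrolase, read 7.97, 8.43, 7.96 and 7.97 in control and 7.83, 8.30, 7.92 and 8.29 in IDE-KD cells. Its difference of 0.0047 (SE 0.16; exact two-sided permutation p = 1.00) hid a split in which control replicate 2 and IDE-KD replicates 2 and 4 were all near the top. Shmt2, which moves a carbon unit from serine to folate, read -0.20 (SE 0.16) and was -0.07 without IDE-KD replicate 3. Aldh1l2, which oxidises the formylated folate, read -0.15 (SE 0.13). Neither difference exceeded 2 standard errors.

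Over the 8 arrays Atf4 was set against each of the other 33 genes, and 0 of these 33 relations passed after Benjamini-Hochberg adjustment of the exact permutation p (smallest adjusted p = 0.156). Shmt2 had the highest coefficient, with r = 0.91 (exact permutation p = 0.0082, adjusted 0.156) and rho = 0.62 (exact permutation p = 0.115, adjusted 0.474). Without control replicate 2 and IDE-KD replicate 3 its r was 0.24, so the relation rested on those arrays. Psph had the lowest, with r = -0.79 (exact permutation p = 0.0159, adjusted 0.175) and rho = -0.83 (exact permutation p = 0.0154, adjusted 0.169), and r = -0.64 without the same arrays. Around the group means, with the difference between the groups taken out, Shmt2 stood at r = 0.94 and Psph at r = -0.57.

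**Figure D5:**
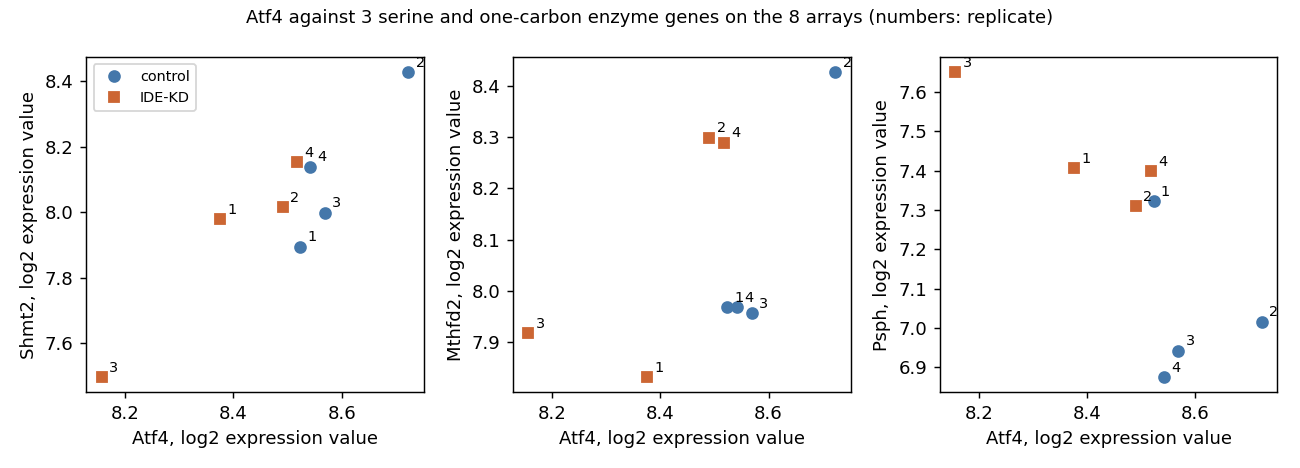
Log2 expression value of Atf4 (x axes) against those of Shmt2, Mthfd2 and Psph (y axes) on the 4 control (blue circles) and 4 IDE-KD arrays (orange squares), labelled by replicate number. Control replicate 2 and IDE-KD replicate 3 hold the ends of the Atf4 range; Shmt2 is highest and lowest on the same arrays, and Psph is highest where Atf4 is lowest.

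Of the other enzymes of amino acid metabolism, 6 of 8 measured genes were lower and 2 higher, with a median difference of -0.06, and every difference was smaller than its standard error. The median was -0.0028 without IDE-KD replicate 1 and 0.0012 without IDE-KD replicates 1 and 3. Asns, asparagine synthetase and the classical amino acid response gene, read 9.76, 9.68, 9.48 and 9.81 in control and 9.43, 10.00, 9.70 and 9.98 in IDE-KD cells. IDE-KD replicate 1 was the lowest of all arrays and IDE-KD replicates 2 and 4 the highest. The difference was 0.09 (SE 0.15; exact two-sided permutation p = 0.60), and it was -0.03 with the exon minus intron contrast as a covariate. It was -0.06 (SE 0.18) within replicates 1 and 3 and 0.24 (SE 0.17) within replicates 2 and 4. The lower genes were Bcat1, a branched-chain aminotransferase, at -0.11 (SE 0.12), Aldh18a1, of proline synthesis, at -0.10 (SE 0.12), Pck2, the mitochondrial phosphoenolpyruvate carboxykinase, at -0.08 (SE 0.12), and Gpt2, the mitochondrial alanine aminotransferase, at -0.07 (SE 0.12). Cth and Cbs, the transsulfuration enzymes that lead from homocysteine to cysteine, were dim and read -0.04 (SE 0.17) and -0.04 (SE 0.14); Cth read -0.37 (SE 0.18) within replicates 1 and 3 and 0.28 (SE 0.22) within replicates 2 and 4. Got1, the cytosolic aspartate aminotransferase, read 0.07 (SE 0.16).

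Both transporter genes stayed within their spread. Slc7a11, the cystine and glutamate exchanger whose promoter holds the paired matches, read 6.52, 6.47, 6.51 and 6.66 in control and 6.55, 6.50, 6.38 and 6.43 in IDE-KD cells, a difference of -0.07 (SE 0.11; exact two-sided permutation p = 0.257). Slc6a9, a glycine transporter, read 0.05 (SE 0.15), and -0.17 without IDE-KD replicates 1 and 3.

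Of the secreted, membrane and endoplasmic reticulum proteins, 3 of 4 measured genes were lower and 1 higher, with a median difference of -0.08. Stc2, a secreted stanniocalcin induced by endoplasmic reticulum stress, had the largest difference of all 34 genes. It read 3.68, 4.18, 3.58 and 3.82 in control and 3.02, 3.25, 3.30 and 3.34 in IDE-KD cells. All knockdown arrays lay below all control arrays, and all 8 values lay below the median control probe set of 4.52. The difference was -0.58 (SE 0.15, 95% confidence interval -0.90 to -0.26), with limma p = 0.00171, rank 28 of the 22142 probe sets, an adjusted p of 1.00 and an exact two-sided permutation p of 0.0286. It was -0.46 (SE 0.17) within replicates 1 and 3 and -0.70 (SE 0.19) within replicates 2 and 4.

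Fgf21, a hormone that ATF4 induces in stressed tissue, was dim and read 3.69, 3.37, 3.11 and 3.34 in control and 3.33, 3.56, 3.52 and 3.27 in IDE-KD cells. Its difference of 0.04 (SE 0.14; exact two-sided permutation p = 0.771) lay within the spread of the arrays. Vldlr, a lipoprotein receptor, read -0.10 (SE 0.11) and Herpud1, a component of endoplasmic-reticulum-associated degradation, -0.06 (SE 0.11).

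Among genes with a match to the composite element and among those without, more genes were lower than higher in the knockdown. Only these letters in that window were searched, so a gene without a match may still carry the element. Of 12 measured genes with a match, 7 were lower (median difference -0.04). Of 19 measured genes whose windows held none, 15 were lower (median difference -0.07). Among all tested probe sets 47.9% were lower, and 55.1% among those at or above the median control probe set. The count among genes with a match lay near the latter share. The difference between these sets was not tested.

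Other genes of the pathway gave the same picture of small values and 0 calls over all probe sets. Of 6 measured genes of the eIF2 kinases and the mitochondrial relay, 4 were lower (median -0.02). Those with the smallest p were Eif2ak1, the haem-regulated kinase, at -0.07 (SE 0.11) and Eif2ak3, which encodes PERK, the kinase of the endoplasmic reticulum, at -0.04 (SE 0.11). Of 8 genes of eIF2, its exchange factor eIF2B and the constitutive phosphatase subunit, 4 were lower (median -0.01), with Eif2b5, the catalytic subunit of eIF2B, at -0.16 (SE 0.17) and Ppp1r15b at -0.11 (SE 0.14). For all 14 of these genes the 95% confidence interval excluded a 1.5-fold change.

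The aminoacyl-tRNA synthetases of the cytosol, many of which are ATF4 targets, had 15 of 18 measured genes lower and 3 higher, with a median difference of -0.06, and 0 passed. These genes all lay above the median control probe set in both groups. Of all probe sets at or above it, 55.1% were lower, with a median of -0.02. Wars, for tryptophan, read -0.14 (SE 0.12). Qars, for glutamine, read 8.36, 8.37, 8.32 and 8.36 in control and 8.43, 8.46, 8.44 and 8.57 in IDE-KD cells, all above the controls, a difference of 0.12 (SE 0.11; limma p = 0.277, adjusted p = 1.00; exact two-sided permutation p = 0.0286). Of all probe sets, 1.39% were higher in this way. Averaged over the 18 genes, the deviation from the control level was -0.10, -0.02, -0.13 and 0.06 on the IDE-KD arrays and -0.06, 0.06, -0.0026 and -0.0002 on the control arrays. IDE-KD replicates 1 and 3 were again the lowest, and the groups overlapped. Among 7 further amino acid transporters of the response, 5 were lower (median -0.07), with Slc7a5, the large neutral amino acid transporter, at -0.18 (SE 0.16) and Slc1a5, a glutamine transporter, at 0.13 (SE 0.15).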

How the data were processed

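RNA of 8 samples was measured on Clariom S arrays. The deposited values are log2 expression values per probe set; RMA, oligo and limma appear in the submitters' processing notes, with neither version nor role, and the build of the probe sets is not stated there. RMA in its usual form equalises array distributions, which would hide a global change in RNA per cell. Of 29129 probe sets, 22142 transcript clusters were tested; 6923 array control probe sets (1324 exon, 5222 intron) and 64 unplaced ones were not. Samples were grouped by their titles.

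Limma 3.58.1 (lmFit, eBayes; R 4.3.3) compared IDE-KD with control over all tested probe sets without covariates, with Benjamini-Hochberg adjustment; the script was tested on simulated data. Single genes also had exact two-sided permutation tests. With 4 arrays a group, the 95% confidence interval of a log2 difference had a median half-width of 0.32.

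The genes, role groups and other lists were chosen with earlier results of these data known, so lists are described by counts and medians without a test. Values on every array are given for 14 genes set by rule (Gdf15 included, not measured) and any further gene with an unadjusted p under 0.05 or groups that did not overlap; in the other pathway lists the 2 genes with the smallest p are named. Alternatives were array weights, a trended robust prior, 3 scalings, 2 filters on dim probe sets, a replicate block, an array covariate and arrays left out; the odd or even replicate block was added after seeing the data. Promoter sequences are from RefSeq.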

Additional observations from a re-analysis of the deposited data

Results flagged for a closer look

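Of 68 groups of 4 arrays (34 genes in 2 groups), 6 held an array that stood far from the other 3 by Dixon's criterion, which chance meets in about 1 group in 20. Mthfd2 read 8.43 on control replicate 2, against 7.96 to 7.97 on the other control arrays. Cth, a dim gene, read 4.39 on IDE-KD replicate 4, against 3.76 to 3.81. Cebpg read 7.01 on control replicate 1, against 6.76 to 6.79. Vldlr read 7.93 on IDE-KD replicate 1, against 8.08 to 8.10. Nupr1 read 6.46 on IDE-KD replicate 3, against 6.40 to 6.41. Sesn2 read 5.48 on control replicate 3, against 5.51 to 5.52. The flagged arrays were 6 different ones, and 3 lay in each group.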

How the results depend on the processing

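With limma, 0 probe sets passed the adjusted threshold under every alternative run, against 1017 at an unadjusted p under 0.05 in the comparison as reported, and the 34 genes had 21 to 26 lower members and a median of -0.08 to -0.05 with 1 array left out. Taking the row with the lower mean where a gene has several was not run, since each gene had 1 tested probe set; the filters removed 5 (median control probe set) and 4 (median intron probe set) dim genes. Same-numbered arrays correlated at 0.10, 0.13, 0.09 and 0.10 in their deviations from the group means, so the numbers were not taken as pairs; with the replicate block 0 probe sets passed, 24 genes were lower and Atf4 differed by -0.20. The odd or even block also gave 0 calls. At an unadjusted p under 0.05, Psph stood under all alternatives but that without IDE-KD replicates 1 and 3. Stc2 stood there under all that tested it. Eif4ebp1 joined with array weights, with both blocks and without control replicate 4. Atf3 and Eif4ebp1 joined without IDE-KD replicates 1 and 3.

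The following signs turned, in genes within their spread, and the cause was not tested. With array weights Ddit4 was 0.0202. After quantile normalization Cebpb was 0.0131, Nupr1 0.0037, Ddit4 0.0127 and Fgf21 -0.0070. After cyclic loess Cebpb was 0.0037, Ddit4 0.0174 and Fgf21 -0.0027, and after subtracting array medians Mthfd2 was -0.0088. With the exon minus intron covariate Ppp1r15a was 0.0051, Ddit4 0.0006, Mthfd2 -0.1204, Asns -0.0252 and Got1 -0.0325. Without IDE-KD replicates 1 and 3 Cebpg was 0.0069, Cth 0.1203, Gpt2 0.0291 and Slc6a9 -0.1682. Leaving out 1 array gave -0.0806 to 0.0577 for Cebpb, -0.0751 to 0.0090 for Nupr1, -0.1052 to 0.1019 for Ddit4, -0.0669 to 0.1202 for Mthfd2, -0.1953 to 0.0783 for Cth, -0.1145 to 0.0222 for Cbs, -0.1157 to 0.0120 for Gpt2, -0.0436 to 0.2200 for Got1, -0.0319 to 0.1796 for Slc6a9 and -0.0445 to 0.1477 for Fgf21.

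The median of the feedback and growth regulators was 0.1436 with either filter on dim probe sets, which drops Ppp1r15a, -0.0105 without IDE-KD replicates 1 and 3, and -0.0001 to 0.1243 with 1 array left out. The median of the transporters was 0.0452 with the covariate, -0.12 without IDE-KD replicates 1 and 3, and -0.0579 to 0.0479 with 1 array left out. With 1 array left out the other medians ran from -0.1367 to -0.0399 (serine and one-carbon enzymes), -0.0997 to -0.0028 (other enzymes), -0.1282 to -0.0628 (bZIP factors) and -0.1192 to -0.0422 (secreted, membrane and endoplasmic reticulum proteins).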
